A study of Mus musculus with 6 samples.

Results

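The 9 genes described here carry sphingosine-1-phosphate (S1P) out of cells, sense it, make it or break it down. They are the exporters Mfsd2b and Spns2, the receptors S1pr1, S1pr2 and S1pr4, the kinases Sphk1 and Sphk2, the lyase Sgpl1 and the phosphatase Sgpp1. They were found by matching symbols to the Ensembl identifiers of the deposited tables, and each symbol matched 1 of 24815 identifiers. The list was chosen by expression values in mutant against wild type (counts and TPM) that were already known, so the levels and fold changes of its genes are given as a description, without p-values.

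RNA sequencing was performed on common myeloid progenitors sorted from C57BL/6 mouse fetal liver at embryonic stage E13.5. These cells are precursors of both the erythroid-megakaryocytic and the granulocyte-monocyte branches of blood formation. The 3 mutant libraries (C, D and Q) came from embryos labelled -77-/-, homozygous for loss of the Gata2 -77 enhancer, and the 3 wild-type libraries (A, F and L) from embryos labelled WT. Cells of both genotypes were sorted as lineage-negative, CD34-positive, c-Kit-positive, Sca-1-negative and low for Fc receptor. The comparison asks which transcripts differ in these progenitors when the enhancer is lost. Whether each library came from its own embryo or from a pool is not given by the labels.

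S1P is a signalling lipid made from sphingosine by sphingosine kinases. It acts outside the cell on G protein-coupled receptors, after export by a transporter, and inside the cell it is either cut irreversibly by the lyase or returned to sphingosine by phosphatases. Red cells, platelets and endothelium are its main sources in blood and lymph, and its gradient guides blood and immune cells between tissue and circulation.

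In the mutant, transcripts of Mfsd2b, the S1P exporter of red cells and platelets, were nearly lost, while Spns2, the exporter best known from endothelium, remained by far the most abundant of the 9 genes. Sphk1, one of the kinases, was barely detected in either genotype and had fewer reads in the mutant. The other 6 genes, which include all 3 receptors, the second kinase and both degrading enzymes, had fitted log2 changes between -0.32 and 0.15. By edgeR's quasi-likelihood test over all genes, 1 of the 9 genes passed an adjusted p of 0.05, with all 6 libraries and again without mutant C, namely Mfsd2b. Without mutant D or Q, or without wild type A, F or L, 0 of the 9 genes and 0 of all genes passed by edgeR (294 to 1611 genes had an unadjusted p under 0.05). The share of all tested genes that passed was 0.155% with all 6 libraries (19 of 12222) and 0.840% without mutant C (106 of 12614). Nothing is read from these counts, since the genes were chosen with this contrast in view.

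The libraries held 14473913 to 30596279 expected counts. Mutant C stood apart from the rest. Its log2 CPM (a count relative to its library size, scaled by TMM factors) correlated with the other libraries at 0.880 to 0.923, against 0.974 to 0.989 among the other 5. Averaged over its counts, the gene length was 1781 bases in that library and 2834 to 3124 bases in the others. Its TPM (transcript abundance corrected for gene length) was the lowest of the mutant libraries for 8 of the 9 genes, so fold changes are given from counts and results are also given without it. Gata2 stood at 8.92, 16.5 and 17.8 CPM in mutants C, D and Q, against 78.6, 57.4 and 63.9 CPM in wild type A, F and L, so every mutant library lay below every wild-type library. Among the markers of the sort, Kit reached 12.5 to 106 TPM in the mutant and 113 to 136 TPM in wild type, Cd34 323 to 752 TPM in the mutant and 585 to 654 TPM in wild type, and Sca-1 transcripts (Ly6a) no more than 3.20 TPM in the mutant and 2.45 TPM in wild type. By CPM, Kit was lower (log2 change -0.57) and Cd34 higher (0.44) in every mutant library, as were 11.4% and 10.6% of all tested genes. The Fc receptor genes Fcgr3 (log2 change 0.53) and Fcgr2b (0.12) overlapped by CPM. Fcgr3 stood at 32.2 to 37.7 TPM in the mutant and 41.4 to 45.0 TPM in wild type.

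The upstream sequences of Mfsd2b, Sphk1 and Sgpp1 are shown because Mfsd2b had the largest fitted difference of the 9 genes, Sphk1 the next largest, and Sgpp1 a small one (log2 change 0.08). They are the 250 bases before the RefSeq start site in GRCm38.p6, written 5′ to 3′ on the strand of the gene. Capitals mark the E-box letters CANNTG and the letters CACCC on either strand, and, on either strand, the letters GATA with A or T before and A or G after them, a form that GATA factors recognise. No marked stretch overlaps another. For Sphk1, which has 5 RefSeq starts, the window shown is the one whose start coincides with that of a transcript the deposited tables list (GENCODE M21 position) and that holds a GATA motif.
Mfsd2b, chr12:4874360-4874609, minus strand: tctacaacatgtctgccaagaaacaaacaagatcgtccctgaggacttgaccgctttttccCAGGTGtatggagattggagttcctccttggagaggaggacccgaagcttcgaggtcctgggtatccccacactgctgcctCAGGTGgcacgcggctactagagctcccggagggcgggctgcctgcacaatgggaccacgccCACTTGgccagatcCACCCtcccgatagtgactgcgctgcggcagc
Sphk1, chr11:116532194-116532443, plus strand: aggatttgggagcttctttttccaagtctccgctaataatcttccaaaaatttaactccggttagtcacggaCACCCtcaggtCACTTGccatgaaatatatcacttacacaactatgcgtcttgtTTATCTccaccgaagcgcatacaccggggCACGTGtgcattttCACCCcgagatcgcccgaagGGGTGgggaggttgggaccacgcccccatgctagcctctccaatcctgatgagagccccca
Sgpp1, chr12:75735730-75735979, minus strand: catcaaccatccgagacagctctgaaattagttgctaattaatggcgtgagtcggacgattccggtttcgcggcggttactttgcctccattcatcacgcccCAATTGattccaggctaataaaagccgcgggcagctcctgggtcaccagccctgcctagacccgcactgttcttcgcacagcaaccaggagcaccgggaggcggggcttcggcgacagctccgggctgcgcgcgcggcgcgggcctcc

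The Mfsd2b window holds 3 E-boxes, 1 CACCC and 0 GATA motifs, and its RefSeq start lies 1 base from a transcript start of the deposited tables. The Sphk1 window shown, which was chosen for holding a GATA motif, holds 1 GATA motif, 2 E-boxes and 3 CACCC. Another Sphk1 window (116531661 to 116531910), whose start also coincides with a listed transcript start, holds 0 GATA motifs, 0 E-boxes and 3 CACCC. The Sgpp1 window holds 1 E-box, 0 GATA motifs and 0 CACCC. Of 32851 RefSeq windows of this length, 26.5% hold a GATA motif, 66.2% an E-box and 52.0% a CACCC. RefSeq windows were found for 8 of the 9 genes, the exception being S1pr1, and among these 8 genes a GATA motif occurred in windows of 2, Sphk1 and Spns2. The 8 genes have 13 windows, of which 3 hold a GATA motif, 2 of the 5 windows of Sphk1 and the 1 window of Spns2. The Spns2 window is 14877 bases from the nearest Spns2 transcript start of the deposited tables, so it is not the promoter of the transcripts counted here. These matches are descriptions of letters in a window and say nothing of factor binding.

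Mfsd2b (ENSMUSG00000037336, chromosome 12, 4862440 to 4874359, minus strand of mm10) had 7, 9 and 12 expected counts in mutants C, D and Q, against 821, 291 and 368 in wild type A, F and L. That is 0.771, 0.430 and 0.372 CPM in the mutant and 32.6, 18.3 and 21.8 CPM in wild type. The groups lay far apart, with no library between 0.771 and 18.3 CPM. Within wild type, library A was the highest and F the lowest. Group means were 0.524 ± 0.215 CPM in the mutant and 24.3 ± 7.46 CPM in wild type (SD, n = 3 each), a log2 change of -5.66 (standard error 0.39), or 50.5-fold lower in the mutant. Without mutant C the log2 change was -5.93 (standard error 0.37), 61.1-fold, so the difference did not rest on that library. None of the 30-base stretches of its transcripts occurred in a transcript of another listed gene, so sharing of reads by identical stretches of that length was not possible within these transcripts.

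**Figure D1:**
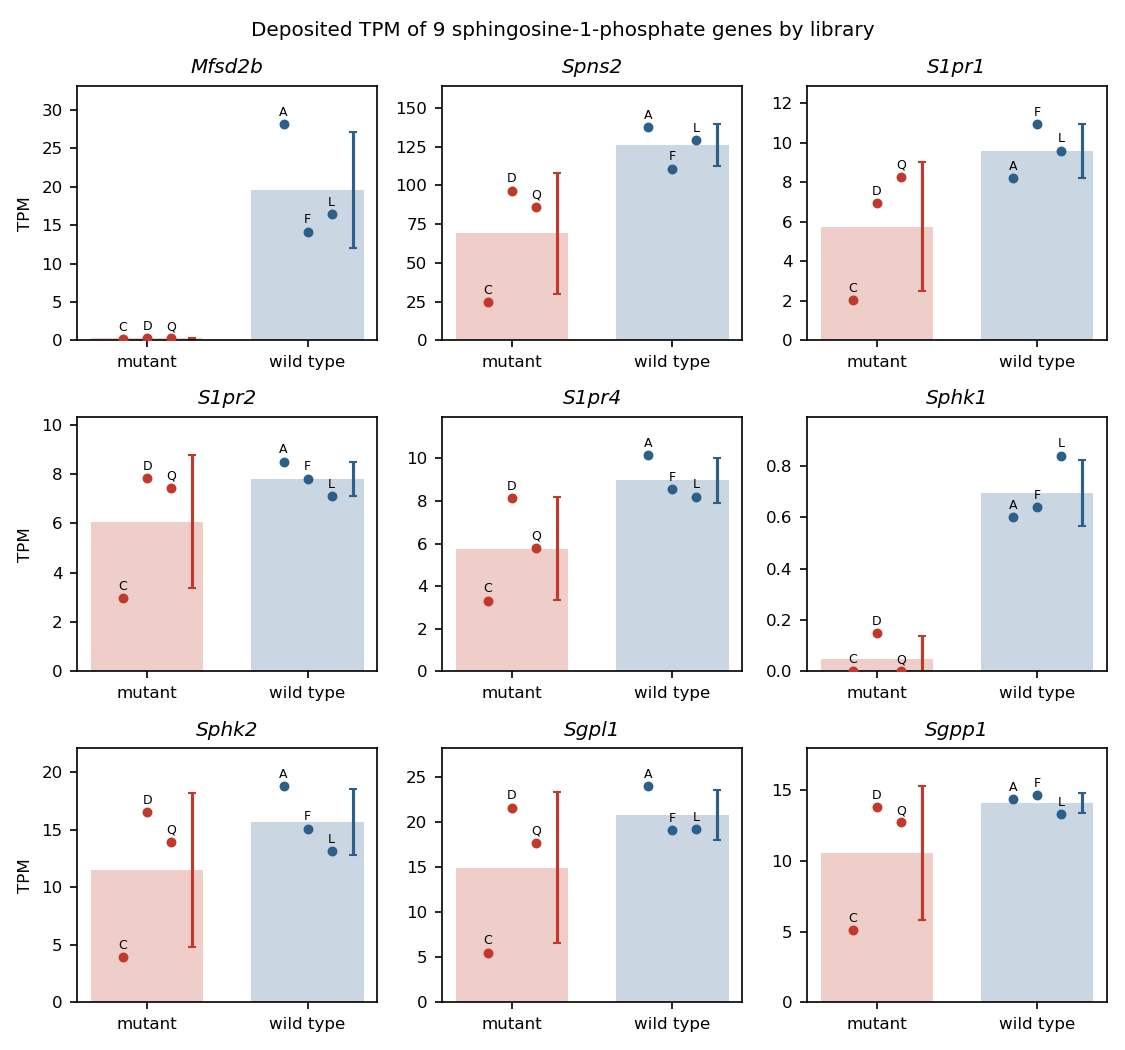
Deposited TPM of the 9 genes in each library (points, lettered by library), with group means (bars) and SD (error bars beside the points, n = 3), mutant left and wild type right in every panel, each on its own linear axis from 0. Mfsd2b lies between 0.20 and 0.33 TPM in the mutant libraries and between 14.2 and 28.2 TPM in wild type, and mutant C is the lowest mutant library in every panel but that of Sphk1, where C and Q are both at 0.

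Spns2 (ENSMUSG00000040447, chromosome 11, 72451638 to 72489904, minus strand) stood at 106, 139 and 143 CPM in mutants C, D and Q, against 179, 164 and 182 CPM in wild type A, F and L. Every mutant library was below every wild-type library, and mutant C was the lowest. The means were 129 ± 20.5 CPM in the mutant and 175 ± 9.88 CPM in wild type (SD, n = 3 each). The log2 change was -0.44 (standard error 0.18) with all libraries and -0.32 (standard error 0.08) without mutant C. In neither of these edgeR fits did it pass, while limma-voom called Mfsd2b alone among the 9 genes with and without mutant C (0.262% and 0.880% of all genes called). DESeq2 called 1 of the 9 genes with all 6 libraries (Mfsd2b) and 2 without mutant C (Mfsd2b and Spns2), where it called 0.729% and 1.72% of all genes. Spns2 overlaps Mybbp1a on the opposite strand, and 3.15% of the 30-base stretches of its transcripts occur there in reverse complement. Whether reads were counted by strand is not given in the sources used here.

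The balance between the exporters was also compared within each library. Of the counts of both exporters, Mfsd2b held 0.725% in mutant C, 0.309% in D and 0.259% in Q, against 15.4% in wild type A, 10.1% in F and 10.7% in L. The exact (Clopper-Pearson) 95% binomial intervals, which cover counting error only, reached at most 1.49% in the mutant and in wild type lay at or above 9.002%. They describe these counts and are no test of the difference, since the genes were chosen with this contrast in view. By TPM, there were 122, 293 and 344 Spns2 transcripts per Mfsd2b transcript in mutants C, D and Q, against 4.89, 7.84 and 7.83 in wild type A, F and L.

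Markers of other cell types were read in the same libraries. By edgeR with all 6 libraries, 8 erythroid, 6 megakaryocyte and 4 mast cell markers, of 8 listed for each, were tested. Of these, 1, 1 and 0 passed, beside 0.155% of all tested genes. Without mutant C, 4, 3 and 3 of the listed markers passed, beside 0.840% of all tested genes. Over all tested genes, 11.4% were lower in every mutant library by CPM, beside which the counts of such markers below stand. The summed TPM of 8 erythroid markers was 11.5 to 18.3 in the mutant and 38.0 to 63.4 in wild type, and by CPM 4 of 8 markers were lower in every mutant library, while the other 4 overlapped, among them the most abundant, Slc4a1 (band 3). For 8 megakaryocyte and platelet markers the sum was 17.0 to 53.3 TPM in the mutant and 91.3 to 106 TPM in wild type, with 6 of 8 lower in every mutant library by CPM, among them Itga2b, the integrin chain CD41. Of 8 mast cell markers, 3 were at 0 in every library and 3 were lower in every mutant library by CPM. Their sums were 11.1 to 11.5 TPM in the mutant and 131 to 160 TPM in wild type, the latter carried by Cpa3 and Hdc. Mcpt8 overlapped by CPM and had a log2 change of 1.02. It stood at 2.63 to 3.97 TPM in the mutant and 2.33 to 3.32 TPM in wild type. Fcer1a was at no more than 0.11 TPM in any library. Hepatoblast markers summed to 79.8 to 525 TPM in the mutant and 25.5 to 97.9 TPM in wild type, led by Afp and Alb. Mutant Q alone held the highest sum, while mutants C (87.8 TPM) and D (79.8 TPM) lay below wild type A (97.9 TPM), so the sums overlapped. By CPM, 3 of these 8 markers, among them Afp, were higher in every mutant library, as were 10.6% of all tested genes, and 0 were lower. Their fitted log2 changes ran from 0.79 to 3.28, and 0 of 8 passed by edgeR with or without mutant C. Endothelial markers summed to 14.7 to 43.9 TPM in the mutant and 49.3 to 54.8 TPM in wild type, of which Pecam1 and Emcn made up most. By CPM, 3 of these 8 markers were lower in every mutant library (Pecam1, Tek and Kdr) and 1 was higher (Emcn). Tek stood at 0.78 to 3.95 TPM in the mutant and 5.88 to 6.96 TPM in wild type, Kdr at 0.04 to 0.55 TPM in the mutant and 0.65 to 1 TPM in wild type, and Cdh5, the endothelial cadherin, at 0.07 to 0.49 TPM in the mutant and 0.33 to 0.45 TPM in wild type. Lymphocyte markers summed to 5.67 to 13.54 TPM in the mutant and 15.0 to 15.6 TPM in wild type, led by Rag2 and Lck, with Cd3e and Cd2 at 0 in every library. By CPM, only 1 of these 8 markers was lower in every mutant library, and 0 were higher. Rag2 (log2 change -0.06) and Lck (0.43) overlapped, and 0 of the 4 tested lymphocyte markers passed by edgeR with all 6 libraries. Macrophage markers summed to 40.3 to 121 TPM in the mutant and 90.0 to 116 TPM in wild type, led by Csf1r and Cd68, with overlapping sums. By CPM, 2 of these 8 markers, both too low in counts to be tested, were higher in every mutant library, and 0 were lower. The 5 tested macrophage markers had log2 changes from -0.11 to 1.25, and 0 passed by edgeR with all 6 libraries. The part of these cell types in the Mfsd2b and Spns2 values was not tested, and in bulk samples fewer cells of a type and less RNA per cell cannot be told apart.

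The kinases differed in level by more than an order of magnitude. Sphk2 (ENSMUSG00000057342, chromosome 7, 45709467 to 45718002, minus strand), the kinase found largely in the nucleus and on internal membranes, stood at 17.95, 25.3 and 23.0 CPM in mutants C, D and Q, against 24.8, 22.4 and 20.1 CPM in wild type A, F and L. The groups overlapped, and the log2 change was -0.02 (standard error 0.19), or 0.10 (standard error 0.11) without mutant C. It was also above 0 without wild type A (0.06) and, with all 6 libraries, by DESeq2 (0.01), so its sign did not hold across settings. Sphk2 overlaps Dbp and the abundant ribosomal protein gene Rpl18 on the opposite strand, and 20.1% of its 30-base stretches occur there in reverse complement, so its level is uncertain if reads were counted without strand.

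Sphk1 (ENSMUSG00000061878, chromosome 11, 116530925 to 116536674, plus strand), the largely cytosolic kinase that growth factors activate, had 0, 3 and 0 counts in mutants C, D and Q, against 14, 9 and 10 in wild type A, F and L. It was therefore at or under 3 counts in every mutant library, a floor that stands for 0.330, 0.143 and 0.0930 CPM in C, D and Q. Wild-type levels were 0.557, 0.567 and 0.592 CPM, above that floor. Over the summed reads the ratio of mutant to wild type was 0.0845, with an exact 95% counting interval of 0.0166 to 0.270, given as a description of these reads, that leaves out the spread between libraries. The fitted log2 change was -3.38 (standard error 0.86), and it was -6.52 without mutant D, -2.50 without mutant Q and -0.69 on log2(TPM + 1). The gene passed the filter on low counts through its wild-type libraries, and without wild type A it did not pass. Sphk1 made up 0%, 0.898% and 0% of the summed TPM of the kinases in mutants C, D and Q, against 3.09%, 4.07% and 6.01% in wild type A, F and L.

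**Figure D2:**
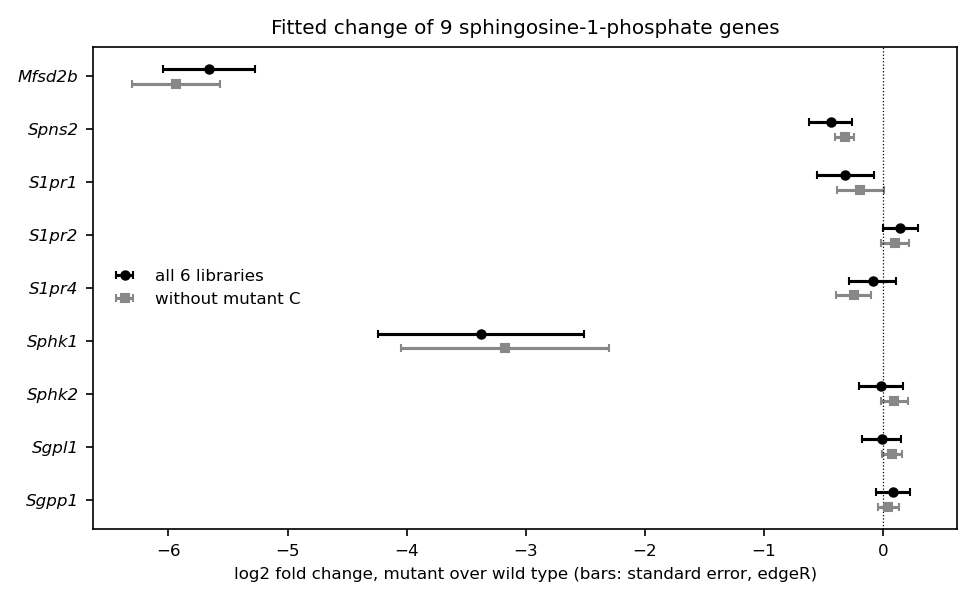
Fitted log2 fold change, mutant over wild type, of the 9 genes (edgeR; bars are standard errors), with all 6 libraries (black circles) and without mutant C (grey squares). Mfsd2b lies at -5.66 and 7 genes lie between -0.44 and 0.15, while the value of Sphk1 (-3.38) rests on 3 mutant counts and was -6.52 without mutant D and -2.50 without mutant Q.

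The receptors were each present at a few TPM and kept similar proportions. S1pr1 (ENSMUSG00000045092, chromosome 3, 115710433 to 115715072, minus strand), the Gi-coupled receptor that draws cells towards S1P, stood at 9.58, 11.1 and 14.8 CPM in mutants C, D and Q, against 11.5, 17.3 and 15.5 CPM in wild type A, F and L. The groups overlapped, with a log2 change of -0.32 (standard error 0.24) and -0.19 (standard error 0.20) without mutant C. S1pr2 (ENSMUSG00000043895, chromosome 9, 20962361 to 20976781, minus strand), which signals through the G12/13 family and can oppose migration, stood at 12.9, 11.6 and 12.3 CPM in the mutant, against 11.1, 11.5 and 10.7 CPM in wild type. Each mutant library was above each wild-type library, by a small margin (log2 change 0.15, standard error 0.15, and 0.10, standard error 0.12, without mutant C), and on the TPM scale the groups overlapped, with 2.97, 7.82 and 7.42 TPM in the mutant and 8.50, 7.81 and 7.11 TPM in wild type.

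S1pr4 (ENSMUSG00000044199, chromosome 10, 81497747 to 81500132, minus strand), a receptor of blood and lymphoid cells, stood at 12.2, 10.2 and 8.12 CPM in mutants C, D and Q, against 11.2, 10.7 and 10.4 CPM in wild type A, F and L. The wild-type libraries lay inside the mutant range, and the log2 change of -0.09 (standard error 0.20) became -0.25 (standard error 0.15) without mutant C and 0.06 without mutant Q. Short stretches of S1pr2 and S1pr4 recur in many other transcripts (2.40% and 2.76% of their 30-base stretches on the same strand), so a small part of their reads could be shared. Of the other receptors, S1pr3 stood at 1.27, 3.98 and 3.38 TPM in the mutant and 4.73, 3.49 and 3.28 TPM in wild type, and S1pr5 was at 0 in all 6 libraries, which allows up to 3 counts in each.

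**Figure D3:**
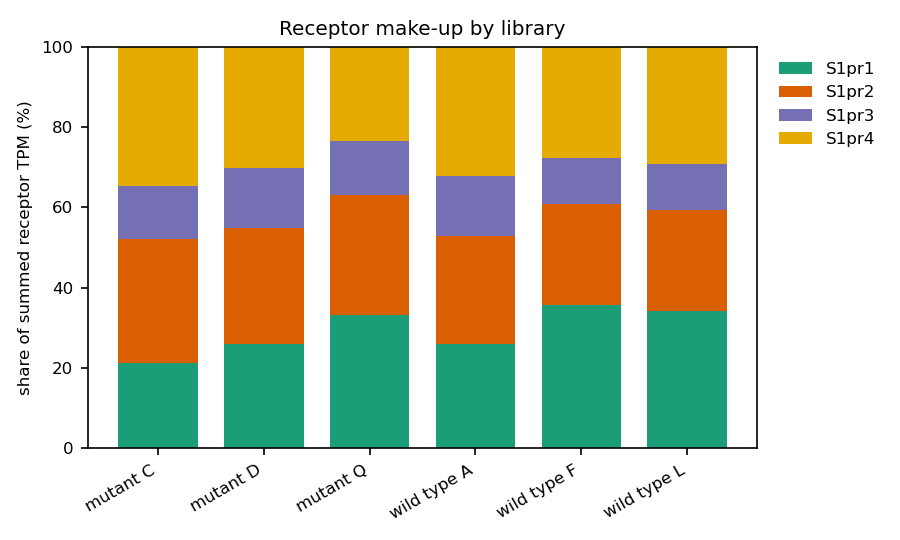
Share of the summed TPM of the S1P receptors held by S1pr1, S1pr2, S1pr3 and S1pr4 in each library, mutant libraries left and wild-type libraries right; S1pr5 was at 0. S1pr2 takes 29.1% to 30.9% in the mutant and 25.2% to 26.9% in wild type, while the ranges of the other receptors overlap between the genotypes.

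Within the summed receptor TPM, S1pr1 held 21.3% to 33.3% in the mutant and 26.03% to 35.5% in wild type, and S1pr4 23.3% to 34.6% in the mutant and 27.8% to 32.1% in wild type. S1pr2 held 29.9% ± 0.911 in the mutant and 25.8% ± 0.927 in wild type (SD, n = 3 each), without overlap. S1pr3 held 13.9% ± 0.830 in the mutant and 12.6% ± 2.01 in wild type. No single receptor made up most of the receptor transcripts in any library, in contrast to the exporters and the kinases, where Spns2 and Sphk2 did so in every library.

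The enzymes that end the S1P signal had close means in both genotypes. Sgpl1 (ENSMUSG00000020097, chromosome 10, 61098642 to 61147703, minus strand), the lyase that cuts S1P irreversibly in the endoplasmic reticulum, stood at 34.8, 46.3 and 40.9 CPM in mutants C, D and Q, against 43.3, 41.1 and 38.7 CPM in wild type A, F and L. Its wild-type libraries lay inside the mutant range, with a log2 change of -0.01 (standard error 0.16) and 0.08 (standard error 0.09) without mutant C. Sgpp1 (ENSMUSG00000021054, chromosome 12, 75714249 to 75735729, minus strand), the phosphatase that returns S1P to sphingosine, stood at 26.3, 24.2 and 24.9 CPM in the mutant, against 22.1, 25.5 and 23.6 CPM in wild type. These groups overlapped too, with a log2 change of 0.08 (standard error 0.14) and 0.05 (standard error 0.09) without mutant C. Neither gene shared a 30-base stretch with another listed gene's transcripts. By TPM, there were 1.41, 1.30 and 1.27 lyase transcripts per Sphk2 transcript in mutants C, D and Q, against 1.28, 1.27 and 1.46 in wild type A, F and L.

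By CPM, 4 of the 9 genes had groups that did not overlap, of which 3 (Mfsd2b, Spns2 and Sphk1) were lower and 1 (S1pr2) was higher in the mutant, where 22.0% of all tested genes did not overlap (11.4% lower and 10.6% higher). By TPM, 4 did not overlap, all lower in the mutant (Mfsd2b, Spns2, Sphk1 and S1pr4), where 25.8% of all tested genes did not overlap (24.0% lower and 1.82% higher). The median log2 change of the 9 genes was -0.09, and that of all 12222 tested genes -0.02. The 9 genes were chosen with this contrast in view, so nothing is read from these counts or medians.

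The order of the 9 genes by mean TPM was led by Spns2 in both genotypes, at 69.0 ± 38.9 TPM in the mutant and 126 ± 13.7 TPM in wild type (SD, n = 3 each). Sgpl1 came next, at 14.9 ± 8.38 TPM in the mutant and 20.8 ± 2.79 TPM in wild type. In the mutant, Sphk2 (11.5 ± 6.68 TPM), Sgpp1 (10.6 ± 4.73 TPM) and S1pr2, S1pr4 and S1pr1 (5.76 to 6.07 TPM) followed with overlapping neighbours, then Mfsd2b at 0.260 ± 0.0656 TPM and Sphk1 at 0.05 ± 0.0866 TPM. In wild type, Mfsd2b (19.6 ± 7.503 TPM) came after Sgpl1 and overlapped both Sgpl1 above it and Sphk2 (15.7 ± 2.87 TPM) below it. Sgpp1 (14.1 ± 0.720 TPM) overlapped Sphk2 and lay clear of the receptors, whose means ran from 7.81 TPM for S1pr2 to 9.60 TPM for S1pr1, with neighbours overlapping. Sphk1 was last at 0.693 ± 0.129 TPM. Mfsd2b thus ranked 8 of 9 in each mutant library and between 2 and 5 of 9 in the wild-type libraries.

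Mutant C read shorter genes higher and longer genes lower than mutants D and Q, with a Spearman correlation of -0.76 between its log2 ratio and gene length across 12222 genes, which share the library and are not replicates. With 0.5 CPM added to both terms, the log2 ratio of mutant C to the mean of D and Q ran from -0.42 (Sphk2) to 0.50 (Mfsd2b) over the 9 genes, whose lengths averaged 1672 to 3969 bases. The median of the 6128 tested genes in that length range was -0.05. Spns2, S1pr1, Sphk2 and Sgpl1 were lower in C by 0.32 to 0.42, and S1pr4 and Mfsd2b, with lengths of 2388 and 2494 bases, were higher by 0.40 and 0.50. S1pr2 (2815 bases) stood at 0.11, Sgpp1 (3324 bases) at 0.10 and Sphk1, the shortest (1672 bases), at -0.19, so length did not order the genes. The Mfsd2b value rests on 7, 9 and 12 counts in C, D and Q, and it was 0.94 without the added 0.5 CPM.

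**Figure D4:**
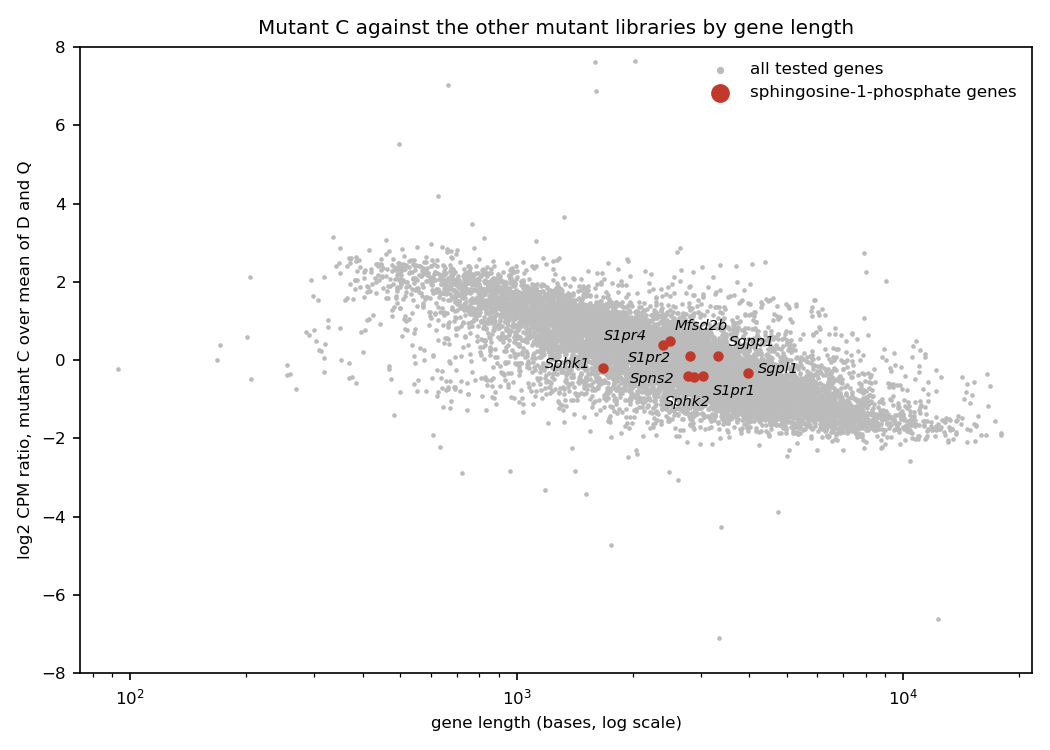
Log2 ratio of CPM in mutant C to the mean of mutants D and Q (0.5 CPM added to both) against gene length in bases on a log axis, for all 12222 tested genes (grey) and the 9 sphingosine-1-phosphate genes (red). The 9 genes lie inside the cloud of genes of their length, between -0.42 and 0.50.

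The other genes of sphingolipid handling gave no call. In 5 lists with 71 genes in the files, 60 were tested. The edgeR fit over all genes called 0 of them (4 had an unadjusted p under 0.05), and DESeq2 and limma-voom also called 0. Their median log2 change was -0.04, with 32 below 0 and 28 above. Without mutant C, edgeR called 0 of 61 (6 had an unadjusted p under 0.05), limma-voom 0 and DESeq2 1, the transcription factor gene Stat3. Each adjusted p in the next paragraph is from edgeR's quasi-likelihood test with Benjamini-Hochberg adjustment over all genes tested.

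In the list of other S1P handling genes (11 tested, median log2 change 0.24), the smallest p belonged to Apom, whose product carries S1P in plasma, Spns1, a lysosomal lysophospholipid transporter, and Plpp2, a lipid phosphate phosphatase. Apom stood at 2.75, 0.478 and 3.596 CPM in mutants C, D and Q, against 0.716, 0.315 and 0.118 CPM in wild type A, F and L (log2 change 2.47, adjusted p = 0.58), and the hepatoblast markers, of the cell type known to secrete it, summed to 79.8 to 525 TPM in the mutant and 25.5 to 97.9 TPM in wild type, whose part in the Apom values was not tested. Spns1 was above every wild-type library in each mutant one (67.2, 38.3 and 37.4 CPM, against 32.0, 27.4 and 29.4 CPM; log2 change 0.68, adjusted p = 0.58), and Plpp2 overlapped (0.67). Without mutant C the log2 change was 0.34 for Spns1 and 0.30 for Plpp2. Of 13 tested genes of ceramide synthesis (median 0.14), the ceramide synthase gene Cers4 was at -0.44, Sptssa, a small subunit of serine palmitoyltransferase, at 0.78 and Ormdl2, a regulator of that enzyme, at 0.89, each at an adjusted p of 0.58. Ormdl2 and Sptssa were highest in mutant C, with 114 and 304 CPM, beside 32.4 and 111 CPM in D and 36.6 and 138 CPM in Q, and without C their log2 changes were 0.07 and 0.21.

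Ceramide and sphingomyelin turnover (13 tested, median -0.10) had its smallest p at Smpdl3b, a sphingomyelinase-like phosphodiesterase gene (log2 change 1.27), the acid ceramidase gene Asah1 (0.52) and the sphingomyelin synthase gene Sgms1 (-0.31), each at an adjusted p of 0.58 by edgeR. Without mutant C they stood at 0.95, 0.07 and -0.15. Among 8 tested glycosphingolipid genes (median -0.20), Ugcg, which makes glucosylceramide, stood at 48.2, 104 and 105 CPM in mutants C, D and Q, against 124, 128 and 146 CPM in wild type A, F and L (log2 change -0.63, adjusted p = 0.58), without overlap, and Gba2, a glucosylceramidase gene, at -0.27 and St3gal5, the ganglioside GM3 synthase gene, at 0.13 lay nearer 0. Without mutant C, Ugcg was at -0.35, Gba2 at -0.18 and St3gal5 at 0.05. Of 15 tested genes of receptor signalling and control (median -0.05), Stat3 stood at 42.5, 88.0 and 82.1 CPM in the mutant, against 118, 110 and 108 CPM in wild type (log2 change -0.66, adjusted p = 0.58, and -0.41, adjusted p = 0.10, without mutant C). The arrestin gene Arrb1 (-0.51) and Gna12 (-0.31), a G protein alpha subunit of the family that S1pr2 uses, were also lower in each mutant library than in each wild-type library by CPM, at an adjusted p of 0.58, and stood at -0.22 and -0.14 without mutant C.

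**Figure D5:**
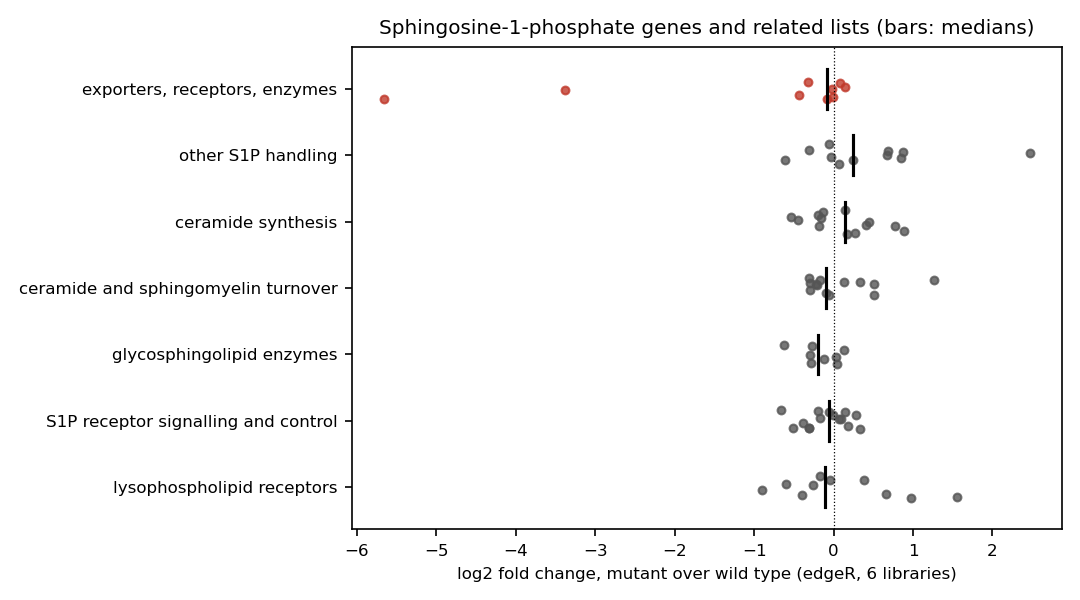
Log2 fold change, mutant over wild type (edgeR, 6 libraries), of the 9 sphingosine-1-phosphate genes (red) and of the tested genes of 6 related lists (grey), 1 point per gene, with vertical bars at the medians. The related lists run from -0.90 to 2.47, and the 9 genes, which were chosen by these same values, from -5.66 (Mfsd2b) to 0.15 (S1pr2).

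The genes whose profile over the 6 libraries was most like that of Mfsd2b were Car1, Ltbp1, Kcnj5, Etl4 and Samd14. Likeness was the root mean square difference of log2 CPM, with a prior count of 2 added before the log. Each gene was centred on its own mean, and the distance ran from 0.43 for Car1 to 0.64 for Samd14. Car1, a carbonic anhydrase gene of early erythroid cells, stood at 0.220, 0 and 0 CPM in mutants C, D and Q, against 5.17, 4.22 and 7.22 CPM in wild type A, F and L. Kcnj5, a potassium channel gene, stood at 0.330, 0 and 0.186 CPM in the mutant, against 7.36, 5.93 and 7.28 CPM in wild type. Both genes were near 0 in the mutant, and with a prior count of 0.5 they stood at ranks 8 and 11. Ltbp1, Etl4 and Samd14 passed by edgeR with all 6 libraries, as did 0.155% of all tested genes, while Car1 and Kcnj5 did not. These 5 genes were picked for likeness to Mfsd2b in the same libraries, so their calls are a description and nothing is read from them. Wild type A was the highest wild-type library for Kcnj5, Etl4 and Samd14, as it was for Mfsd2b, but not for Car1 or Ltbp1. Among the other 8 sphingosine-1-phosphate genes, Sphk1 was the nearest to Mfsd2b by this measure, at rank 45 of 11433 genes (distance 1.62), and S1pr2 the farthest, at rank 7268 (distance 2.74). Nothing is read from these ranks, since the genes were chosen with this contrast in view. Sphk1 had 0, 3 and 0 counts in mutants C, D and Q, so its mutant values rest largely on the prior count.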

How the data were processed

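Gene tables of 6 libraries were used. Per the submitters' processing notes, reads were processed with CASAVA 1.8.2, Bowtie 1.1.1 and RSEM 1.2.18 on mm10. Which annotation was used, and whether reads were paired or stranded, is not given in the sources used here. The authors deposited tables in which expected counts, which need not be whole, not normalized, stand beside TPM, which is scaled for gene length and depth, per the file headers. Gene lengths are those of the deposited length column. Symbols came from a table of Ensembl identifiers that named 24448 of 24815, and positions from GENCODE M21, of the same build. The list symbol Adrbk1 was read as Grk2 through RefSeq synonyms.

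Rounded counts were tested in edgeR 4.0.16 (R 4.3.3) with filterByExpr (minimum count 10), TMM scaling and the quasi-likelihood F test, mutant against wild type, with Benjamini-Hochberg adjustment over all genes tested and 0.05 as the threshold. For the standard error, the size of the log2 change was divided by the root of its F value. DESeq2 1.42.0 and limma 3.58.1 (voom) were alternatives, and the fits were tested on simulated data. No samples were paired, since the replicate letters differ between genotypes. Chi-square per gene between libraries of a group was at least 9.25, so none was a repeat deposit. With no statement that the libraries of a group are separate embryos, p-values reflect the spread among the libraries, which may be technical.

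The 9 genes and all lists were chosen with earlier results of these data known. Genes named beside the 9 are Gata2, the 3 of each related list with the smallest p, those past the threshold, the 5 nearest Mfsd2b in profile, and the 2 most abundant markers of each of 8 cell type lists, of which some are not reported here. Kit, Ly6a, Fcgr3, Fcgr2b, Mcpt8, Fcer1a, Cdh5, Tek, Kdr, Cd3e, Cd2, S1pr3, S1pr5, Mybbp1a, Dbp and Rpl18 fall outside that rule. They were added after values were seen. Intervals and floors cover counting error only. Shared stretches were counted with 30-base words of the GENCODE M21 transcripts. Upstream sequences are from RefSeq (GRCm38.p6).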

Additional observations from a re-analysis of the deposited data

How the results depend on the processing

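The number of genes past the threshold depended on the setting: 19 by edgeR with all 6 libraries, 124 by DESeq2, 32 by limma-voom and 36 without the low-count filter, and, in fits added after seeing the data, 243 by DESeq2 and 111 by limma-voom without mutant C. Leaving out 1 library at a time gave 0 to 106, with 106 without mutant C and 0 without any other library. Of the 9 genes, 0 to 1 passed when 1 library was left out, and DESeq2 without mutant C called 2. Mfsd2b lost its call without mutant D or Q or without wild type A, F or L, fits in which no gene passed and 294 to 1611 genes had an unadjusted p under 0.05, while its log2 change stayed between -5.94 and -5.37 in the count fits and was -3.97 on log2(TPM + 1). DESeq2 without mutant C called 1 pathway gene, against 0 otherwise. The sign of small log2 changes turned: leaving out 1 library gave -0.246 to 0.0596 for S1pr4 (above 0 without mutant Q), -0.124 to 0.0956 for Sphk2 and -0.113 to 0.0766 for Sgpl1 (both above 0 without mutant C and without wild type A). Sphk2 was also above 0 by DESeq2 (0.0104), with RLE factors (0.0112), and without C by DESeq2 (0.107) and limma-voom (0.0819), where Sgpl1 was at 0.0154, 0.0178, 0.0876 and 0.0667. S1pr2 and Sgpp1 were below 0 on log2(TPM + 1), at -0.40 and -0.49. In the wild-type order by TPM, 5 to 9 genes kept their place when 1 library was left out, the 5 being without F. Of the 5 genes nearest Mfsd2b, 2 were among the nearest 5 with a prior count of 0.5, and 2 without mutant C. The cause of these shifts was not tested. Sphk1 could not be fitted without wild type A. No paired analysis was possible because the genotypes share no replicate letters. Depth limits Sphk1, at 3 counts or fewer in each mutant library.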

Other observations

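Receptors for other lysophospholipids and their relatives, close kin of the S1P receptors in ligand type, were measured in the same libraries. Of 14 listed genes, 10 were tested and 0 passed over all genes by edgeR, DESeq2 or limma-voom (2 at an unadjusted p under 0.05 by edgeR), with a median log2 change of -0.10. Gpr34 and Gpr174, both receptors for lysophosphatidylserine, stood on opposite sides. Gpr34 stood at 11.3, 3.63 and 4.09 CPM in mutants C, D and Q, against 1.67, 2.33 and 2.37 CPM in wild type A, F and L (log2 change 1.55, standard error 0.50, adjusted p = 0.58 by edgeR, and 0.87 without mutant C). Gpr174 stood at 3.30, 6.60 and 6.39 CPM in the mutant, against 8.95, 11.5 and 10.4 CPM in wild type (log2 change -0.90, standard error 0.29, adjusted p = 0.58 by edgeR, and -0.67 without mutant C). For both genes the groups did not overlap, which 22.0% of all tested genes also showed. Gpr65, a proton-sensing receptor, stood at 69.2, 33.5 and 34.8 CPM in the mutant, against 27.1, 31.2 and 28.1 CPM in wild type, a log2 change of 0.67 that was 0.24 without mutant C.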
